A study of Mus musculus with 28 samples.

Results

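The genes described here are those of the mouse count table whose symbol is Clec followed by a digit, the naming series of the C-type lectin domain family. The rule found 33 of the 29068 genes in the table, and 27 of these had enough counts for the test, among 18107 genes tested in all. Whole skin wounds of wild-type C57BL/6J (MLKL+/+) mice, 8 weeks old and of both sexes, were sequenced as bulk RNA. A 6-mm punch was taken from the back down to the fascia, and the whole site was collected with its scab and margins. The labels give 7 time points, days 0, 3, 5, 7, 10, 12 and 14, with 4 libraries analysed for each and 28 in all (the design text gives 5 repeats). They treat day 0 as the control, while figure legends of the study call the day of injury day 1. All groups shared genotype, and no group differed in a treatment other than the wound. The sources used here do not settle whether the day 0 libraries came from skin before or just after injury. Nothing in the labels says that the libraries of a day came from separate mice, so p-values measure the spread between these libraries, which may be technical.

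C-type lectin receptors are membrane proteins whose lectin-like domain binds sugars, lipids or proteins of microbes and of damaged cells. On neutrophils, monocytes and macrophages, activating members signal through the kinase SYK and the adaptor CARD9 to cytokine genes, either by a motif of their own or by the partner chains FcRγ (Fcer1g) and DAP12 (Tyrobp). Inhibitory members carry a tyrosine motif that recruits phosphatases such as SHP-1 (Ptpn6), and further members serve the uptake of glycoproteins, platelet activation or recognition by natural killer cells. The name does not make every member a receptor: Clec3a, Clec3b, Clec11a and Clec18a encode secreted proteins, and Clec16a encodes a protein of endolysosomal membrane traffic.

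Most members lie on chromosome 6. In the GENCODE annotation of GRCm38, the build that the submitters name as mm10, 32 of the 33 symbols were found, all but Clec2m. With gaps of at most 500 kb, 9 members formed a cluster from 122921848 (Clec4a1) to 123289870 (Clec4e), which also holds Clec4a3, Clec4a4, Clec4b1, Clec4a2, Clec4b2, Clec4n and Clec4d. A second cluster of 12 ran from 128662385 (Clec2h) to 129472779 (Clec7a) with Clec2i, Clec2g, Clec2f, Clec2e, Clec2d, Clec12a, Clec12b, Clec1b, Clec9a and Clec1a. The annotation lists Clec2f as a transcribed unprocessed pseudogene and Clec7a as a polymorphic pseudogene, and the other matched members as protein coding. Near-identical copies could share reads. Of the windows of 50 bases in a gene's exons, 15.68% of Clec4a4, 9.73% of Clec4b1 and 8.31% of Clec4a2 were found in another gene, in each case another member, and 10.6% of Clec10a were found in its neighbour Mgl2. Clec4d and Clec4e, among others, had none. Exons of Clec1b and Clec9a overlap on the same strand, so reads in the shared stretch cannot be told apart. Exons of Clec4g overlap those of Gm16553 on the other strand, and whether the counting used strand is not given.

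The promoters of Clec4e and Clec4d are shown because these neighbours, read from opposite strands of the first cluster, had the largest changes of all members. Both are RefSeq sequences of GRCm38.p6 from 250 bases before the start of the gene to 50 bases after it, given 5′ to 3′ on the strand of the gene. Capitals mark matches on either strand to 4 sets of letters. The letters GAGGAAG stand for the type of site bound by PU.1, a factor of myeloid cells. For C/EBP factors, which act in granulocytes and macrophages, the letters searched were TTGCNNAA. AP-1 is the family of Fos and Jun, and its letters were TGANTCA. The box near the start of many genes, named TATA, was searched as TATAAA, and no pair of these sets can match the same bases in full. The Clec4e promoter is chr6:123289822-123290121 on the minus strand, and the Clec4d promoter is chr6:123261857-123262156 on the plus strand.
Clec4e: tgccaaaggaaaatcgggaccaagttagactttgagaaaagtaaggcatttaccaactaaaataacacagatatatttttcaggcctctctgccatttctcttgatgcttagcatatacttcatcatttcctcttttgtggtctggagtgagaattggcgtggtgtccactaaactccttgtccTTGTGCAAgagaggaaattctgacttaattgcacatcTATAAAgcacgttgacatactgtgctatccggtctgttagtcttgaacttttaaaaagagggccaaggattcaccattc
Clec4d: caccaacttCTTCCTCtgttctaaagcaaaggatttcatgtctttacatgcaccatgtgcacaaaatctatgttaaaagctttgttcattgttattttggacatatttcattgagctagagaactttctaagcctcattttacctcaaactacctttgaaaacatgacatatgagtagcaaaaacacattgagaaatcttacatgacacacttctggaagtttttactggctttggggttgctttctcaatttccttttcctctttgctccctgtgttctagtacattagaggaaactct
In Clec4e the C/EBP-type match begins 66 bases and the TATA box 29 bases before the start, and in Clec4d the PU.1-type match begins 241 bases before it. A PU.1-type match was in 7 of the 26 member promoters found in RefSeq and in 13.5% of all 27025 promoters. C/EBP-type letters were in 5 of the 26 and in 10.8% of all promoters, AP-1-type letters in 6 and 7.93%, and the TATA box in 8 and 14.2%. These are matches of letters, not binding sites.

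Depth was similar in all libraries, between 36706513 and 40655764 counts. The libraries of day 0 differed more among themselves than those of any wound day: the biological coefficient of variation over all genes was 26.5% on day 0 and between 5.77% and 10.8% on the other days. Replicates 1 and 4 of day 0 stood apart from replicates 2 and 3. The summed FPKM (fragments per kilobase of transcript, scaled to the depth of the library) of 8 neutrophil genes was 55.3 and 63.7 in the former and 19.7 and 16.6 in the latter, and that of 6 skeletal muscle genes was 14900 and 15500 against 9690 and 9990. The sum of 6 matrix fibroblast genes went the other way, with 5120 and 3050 against 11800 and 11400. Keratinocyte and fibroblast genes were detected in every library, which bears on the label skin. Other tissues of the sample also differed between day 0 and the wound days: the muscle sum was 2130 to 5700 on the wound days, with all 6 genes lower on each, and the sum of 6 fat genes was 1590 to 2210, 4360 to 5470 and 5600 to 6510 on days 0, 3 and 5. Of the fat genes, 3 were higher and 2 lower on days 3 and 5 (31.8% and 34.8% of all genes on day 3, 29.0% and 30.6% on day 5). The part of these tissues in the comparisons with day 0 was not tested. Over days 3 to 14 there were 120 calls of a member on a day against day 0. Without the 1st and 4th day 0 library, a choice made after seeing the data, 105 of these kept their call, 14 lost it and 1 changed sign. Without the 2nd and 3rd, 89 kept it, 25 lost it and 6 changed sign, and these fits rest on fewer libraries. Each of these fits keeps 2 day 0 libraries that are alike, so its p-values leave out the difference between the pairs. Calls in them show how a result depends on the choice of libraries, and no more. Most of the members concerned are named beside their results.

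Summed over the 33 members, the FPKM was 623 ± 194 (SD, n = 4) in day 0 skin and 815 ± 26.3, 790 ± 44.2, 650 ± 32.6, 417 ± 5.96, 477 ± 15.6 and 264 ± 15.2 on days 3, 5, 7, 10, 12 and 14. The make-up of the sum changed with it. On day 0 the secreted Clec3b held 46.7% of the sum and Clec2d 16.8%. On day 3 Clec4d, at 25.5%, was first, followed by Clec4a1 with 10.6%, and from day 7 Clec3b was first again, with 40.3% on day 14. In bulk tissue, fewer cells of a type and less RNA per cell cannot be told apart, here and in all results that follow.

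Each later day was compared with day 0 in 1 edgeR fit of all 28 libraries, and a gene was called at an adjusted p under 0.05. All of these comparisons share the day 0 libraries. They also share 1 spread per gene, estimated over all 7 days. Day 0 varied more than the wound days, so p-values against day 0 can be too small. On day 3, 14 of the 27 members tested were higher, against 31.8% of all genes tested, and 8 were lower, against 34.8%. On day 5, 12 were higher (29.0% of all genes) and 6 lower (30.6%), and on day 7, 13 were higher (25.6%) and 7 lower (24.8%). The balance had turned by day 10, when 9 were higher (23.5%) and 12 lower (26.9%). On day 12, 4 were higher (21.7%) and 12 lower (25.6%). On day 14 no more than 3 members, Clec4d, Clec7a and Clec14a, were higher (28.2%), while 20 were lower (34.5%). The median log2 fold change of the members was 0.64, 0.53, 0.33, -0.32, -0.30 and -1.21 on these 6 days in turn, and that of all genes tested lay between -0.06 and 0.00. Without the 2nd and 3rd library of day 0, the members called lower numbered 4, 2, 2, 7 and 18 on days 3, 5, 7, 12 and 14 (29.5%, 28.1%, 24.6%, 22.0% and 26.9% of all genes in that fit), and those called higher numbered 7 on day 12 (21.5%). Without the 1st and 4th instead, 12 of the 27 were higher (31.5%) and 7 lower (32.6%) on day 3, and 19 were lower on day 14 (32.7%). Clec4b2 had enough counts for the test in that fit and was lower on both days too.

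With the limits of the study, a log2 fold change over 1.5 and an unadjusted P under 0.05, fewer members passed. On day 3, 7 were higher (6.5% of all genes) and 4 lower (12.4%). For day 5 these numbers were 5 (5.61%) and 1 (8.31%), for day 7 they were 5 (4.66%) and 1 (4.74%), for day 10 4 (4.33%) and 4 (5.14%), and for day 12 1 (3.89%) and 1 (3.51%). On day 14 none was higher (5.15%) and 11 were lower (8.83%).

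Over the wound days alone, 26 of the 27 members varied by the joint test of days 3 to 14, against 85.1% of all genes, and Clec2l did not pass (edgeR adjusted p = 0.34). From day 3 to day 14, 21 members fell (32.8% of all genes) and 2 rose, the secreted Clec3b and Clec11a (34.2%). By the limits of the study 15 fell (9.58%) and none rose (9.0%). The median log2 difference of day 14 minus day 3 was -1.87 over the members and 0.04 over all genes tested. Leaving out composition normalization shifted the median of all genes in this contrast to 0.22 and upper quartile scaling to 0.17, and with these scalings 19 and 20 members fell (25.6% and 27.1% of all genes) and 3 and 2 rose (45.6% and 42.8%).

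**Figure D1:**
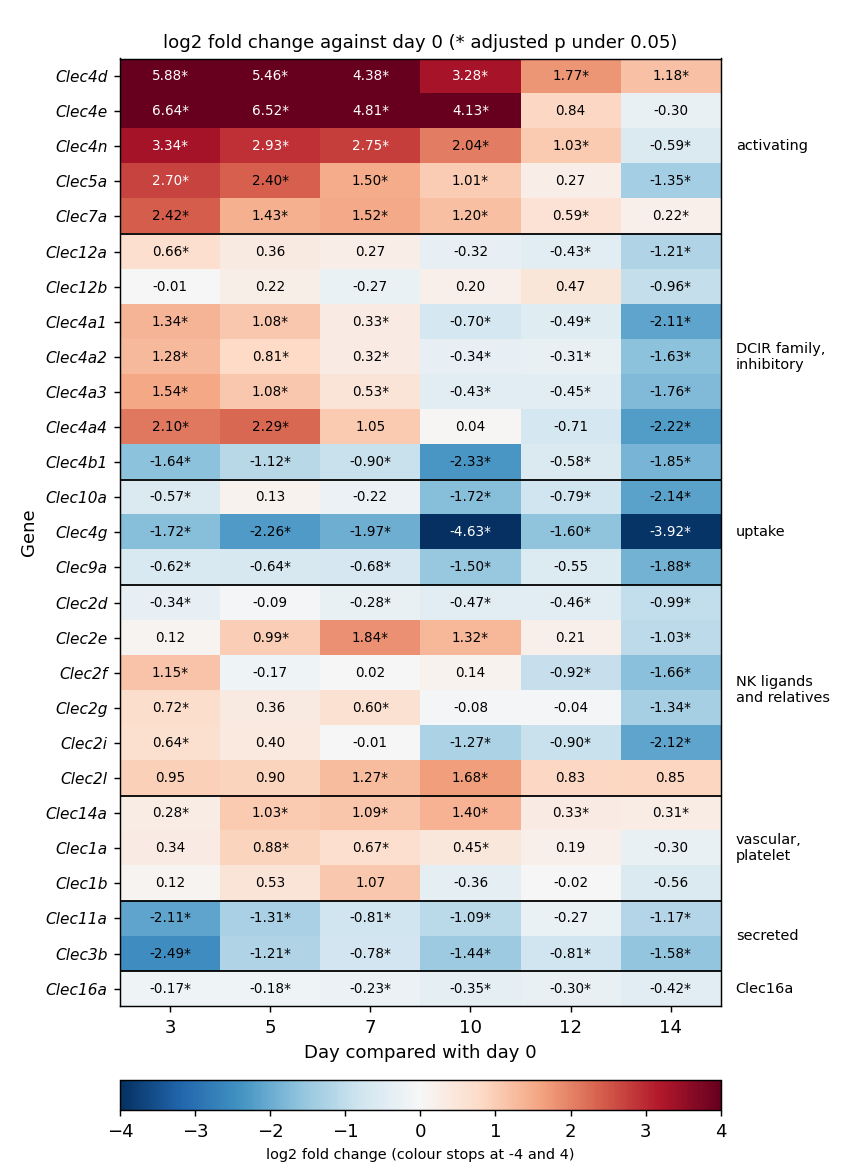
Fitted log2 fold change of each of the 27 tested members (rows, grouped by role) on days 3 to 14 against day 0 (columns), with an asterisk at an adjusted p under 0.05 in edgeR. The 5 receptors listed as activating, which leave out Clec4b1, are red and marked from day 3 to day 10, with Clec4e highest at 6.64 on day 3, and on day 14 most rows are blue, 20 of them marked.

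The 5 members listed as activating myeloid receptors were higher than day 0 on days 3, 5, 7 and 10, when 31.8%, 29.0%, 25.6% and 23.5% of all genes were. A further member known as activating, Clec4b1, was listed with its DCIR relatives and was lower on these days, as given with them. They are Mincle (Clec4e), a receptor for mycobacterial glycolipid and for the nuclear protein SAP130 of dying cells, its partner MCL (Clec4d), Dectin-2 (Clec4n), a receptor for mannose-rich sugars, MDL-1 (Clec5a), which signals through DAP12, and Dectin-1 (Clec7a), the receptor for fungal β-glucan. Their order by size of change on day 3 was Clec4e, Clec4d, Clec4n, Clec5a and Clec7a. By day 14 the members of the group had parted, with 2 above day 0, 2 below it and 1 with no call.

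Clec4e had an FPKM of 1.19, 0.188, 0.0591 and 0.822 in the 4 libraries of day 0, from 140, 23, 7 and 91 counts, and of 49.6, 50.7, 51.5 and 63.2 in those of day 3. The lowest day 3 library was therefore far above the highest day 0 library, although the latter differed widely among themselves. The log2 fold change was 6.64 (SE 0.34, edgeR adjusted p = 9.7e-16), and it was 8.80 without the 1st and 4th day 0 library and 5.84 without the 2nd and 3rd. The level was 50.2 ± 2.88 FPKM (SD, n = 4) on day 5, 15.8 ± 1.54 on day 7 and 10.2 ± 1.52 on day 10. Between days 10 and 12 it fell by 3.29 on the log2 scale (SE 0.30, edgeR adjusted p = 8.1e-10) to 1.11 ± 0.34 FPKM. On day 14 the libraries held 0.418, 0.634, 0.469 and 0.467 FPKM, which lay within the range of day 0 (log2 fold change -0.30, SE 0.42, edgeR adjusted p = 0.55). This last value has no settled sign: against the 2nd and 3rd day 0 library it was 1.86, and against the 1st and 4th it was -1.08.

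Clec4d followed a like course at a higher level. Its FPKM was 6.71, 0.906, 0.324 and 6.83 on day 0 and 189, 198, 199 and 245 on day 3, so that the days did not overlap (log2 fold change 5.88, SE 0.43, edgeR adjusted p = 1.6e-12). Without the 1st and 4th day 0 library this value was 8.45, and without the 2nd and 3rd it was 5.04. The means of days 5, 7, 10 and 12 were 157 ± 14.3, 76.6 ± 11.8, 37.1 ± 3.27 and 13.8 ± 1.69. On day 14 the libraries held 10.7, 9.45, 6.42 and 9.94 FPKM, and the replicate with 6.42 lay below the highest libraries of day 0. The log2 fold change on day 14 was 1.18 (SE 0.40, edgeR adjusted p = 0.011), a call that was lost without the 2nd and 3rd day 0 library (0.38, adjusted p = 0.058) and when days 0 and 14 alone were fitted (1.25, adjusted p = 0.18).

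Clec4n rose from 10.6, 6.69, 5.64 and 6.35 FPKM on day 0 to 74.4, 69.5, 69.4 and 72.0 on day 3 (log2 fold change 3.34, SE 0.13, edgeR adjusted p = 4.1e-18). All libraries of days 3 to 12 lay above those of day 0, with means of 54.4 ± 2.78, 49.4 ± 0.79, 31.2 ± 1.25 and 16.5 ± 1.82 on days 5, 7, 10 and 12. On day 14 Clec4n was below day 0, with 5.75, 4.40, 4.68 and 6.44 FPKM (log2 fold change -0.59, SE 0.14, edgeR adjusted p = 0.00045), although the libraries of both days overlapped, and fitting these 8 libraries alone gave an adjusted p of 0.068.

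Clec5a had the lowest mean of the group on days 3, 5, 7 and 10. Its FPKM was 1.45, 1.77, 1.15 and 0.970 on day 0 and 8.34, 7.70, 8.24 and 9.17 on day 3 (log2 fold change 2.70, SE 0.15, edgeR adjusted p = 3.3e-15). Its means were 6.87 ± 0.53, 3.79 ± 0.65, 2.81 ± 0.31 and 1.78 ± 0.17 FPKM on days 5, 7, 10 and 12. On day 14 its libraries held 0.566, 0.446, 0.654 and 0.614 FPKM, all below those of day 0 (log2 fold change -1.36, SE 0.16, edgeR adjusted p = 3.6e-08).

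Clec7a had 11.3, 14.0, 14.2 and 14.9 FPKM on day 0 and 68.8, 67.0, 70.5 and 73.3 on day 3 (log2 fold change 2.42, SE 0.08, edgeR adjusted p = 2.4e-20), and here the day 0 libraries stood close together. It fell to 35.5 ± 0.29 by day 5 (log2 difference of day 5 minus day 3 -0.99, SE 0.07, edgeR adjusted p = 3.7e-11) and was 38.9 ± 2.35 on day 7 and 32.3 ± 1.37 on day 10. Means of 22.6 ± 1.49 and 17.2 ± 1.69 followed on days 12 and 14. The day 14 libraries, at 15.4, 17.2, 16.8 and 19.5 FPKM, were all above those of day 0 but overlapped them after TMM scaling, and the log2 fold change was 0.22 (SE 0.07, edgeR adjusted p = 0.011). Leaving out the 1st and 4th day 0 library (0.17, adjusted p = 0.052) or replicate 4 of day 14 (0.17, adjusted p = 0.060) ended this call.

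**Figure D2:**
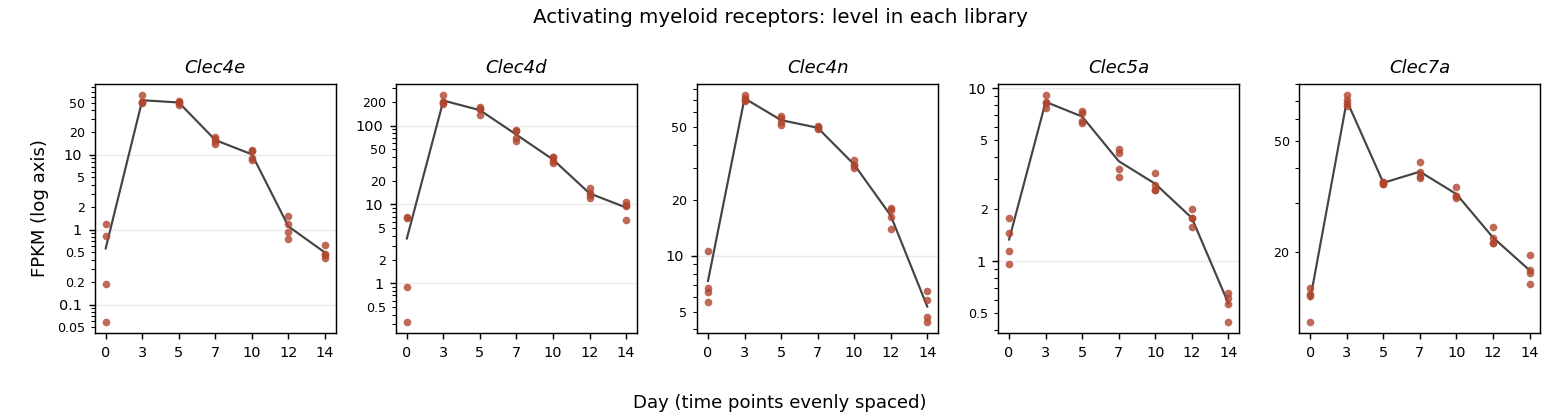
FPKM of the 5 activating receptors on a log axis against day, with 1 point per library and a line through the means of 4 libraries. Each gene peaks on day 3, and the day 0 points of Clec4e and Clec4d spread from 0.0591 to 1.19 and from 0.324 to 6.83.

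Sums of neutrophil genes and of monocyte and macrophage genes also rose by day 3. Those of 4 Langerhans cell genes (1710 to 2990 on day 0, 1400 to 1670 on day 3) and 7 T and natural killer cell genes (37.2 to 40.7, then 20.3 to 23.9) fell. The summed FPKM of the neutrophil list (8 genes, all tested, none at 0 throughout) lay between 16.6 and 63.7 in day 0 libraries and between 7650 and 9770 on day 3. Its ranges were then 2710 to 3520, 972 to 1810, 437 to 494, 26.2 to 35.5 and 29.4 to 37 on days 5, 7, 10, 12 and 14. For 9 monocyte and macrophage genes the sums were 1100 to 1610, 3200 to 3400, 3350 to 3660, 1690 to 1800 and 658 to 744 on days 0, 3, 5, 10 and 14. On day 10, 3 of these 9 genes were higher than day 0 and 5 lower (23.5% and 26.9% of all genes). Of 6 genes of leukocytes at large, 1 was higher and 3 were lower that day. The part of cell numbers in the changes of the receptors was not tested.

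Levels were also set against Ptprc (CD45), which all leukocytes carry. Ptprc had 14.7 ± 2.47, 50.4 ± 1.92, 11.3 ± 0.77 and 6.50 ± 1.07 FPKM on days 0, 3, 10 and 14. The mean log2 ratio of counts to Ptprc rose for Clec4e from -6.42 ± 2.14 (SD, n = 4) on day 0 to -0.87 ± 0.17 on day 3, was -1.12 ± 0.12 on day 10 and -4.50 ± 0.43 on day 12. The ratio of Clec7a was -1.56 ± 0.35, -0.98 ± 0.09, 0.07 ± 0.08 and -0.03 ± 0.24 on days 0, 3, 10 and 14, and its day 3 libraries overlapped those of day 0. Clec4n and Clec5a had their highest ratios on day 10, at -0.77 ± 0.08 and -2.63 ± 0.12, while their FPKM was highest on day 3. Of the 27 members, 4 had all 4 ratios above those of day 0 on day 3 (Clec4d, Clec4e, Clec4n and Clec5a), against 2.42% of all genes tested except Ptprc, and 17 had all below, against 87.0%. Ptprc itself was higher than day 0 on day 3 and lower on days 10 and 14. On day 10, 9 members were above (31.6%) and 3 below (6.72%), and on day 14, 7 were above (71.1%) and 3 below (2.37%). The ratios are a description and carry no test.

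**Figure D3:**
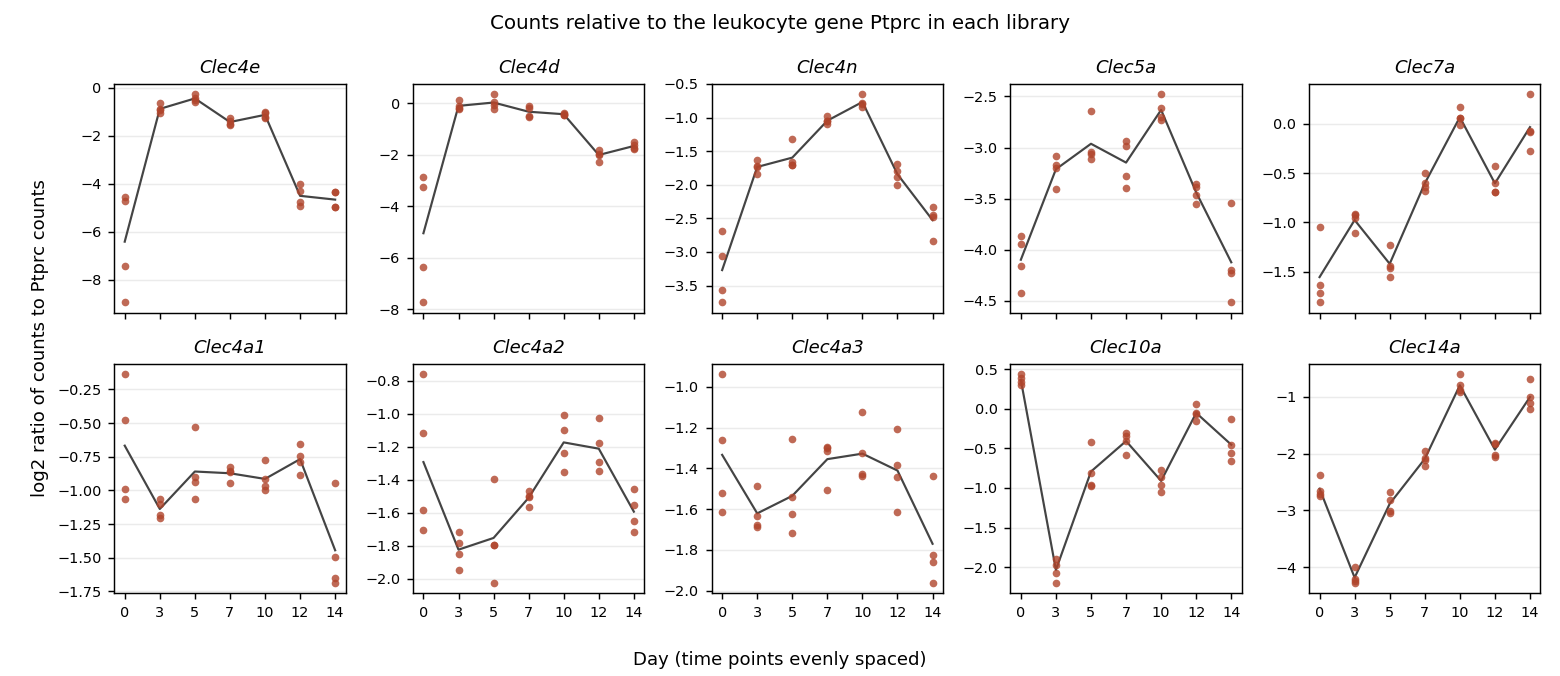
Log2 ratio of a member's counts to those of Ptprc against day for 10 members, with 1 point per library and a line through the day means. The ratios of Clec4e and Clec4d are high from day 3 to day 10 and drop on day 12, while the means of Clec7a and Clec14a are highest on day 10.

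The DCIR family and other inhibitory or paired myeloid receptors were not all alike. Of the 7 members tested, 5, 4 and 3 were higher on days 3, 5 and 7 (31.8%, 29.0% and 25.6% of all genes) and none from day 10, and all 7 were lower than day 0 on day 14 (34.5%). The group includes Clec4b1, which was lower on every wound day, and Clec12b, which was called on day 14 alone. The family comprises DCIR itself (Clec4a2), an inhibitory receptor of dendritic cells and macrophages, and its close relatives Clec4a1, Clec4a3 and Clec4a4. Clec4a1 had 49.6, 30.4, 30.6 and 30.5 FPKM on day 0. It had 88.0, 88.1, 86.2 and 82.6 in the day 3 libraries and 7.98, 8.92, 9.75 and 9.03 on day 14. Every day 3 library lay above and every day 14 library below the range of day 0. The log2 fold changes were 1.34 (SE 0.11, edgeR adjusted p = 1.3e-11) on day 3 and -2.11 (SE 0.12, edgeR adjusted p = 1e-14) on day 14.

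Clec4a3 had 33.3, 24.3, 24.9 and 20.8 FPKM at day 0, reached 76.9, 72.7, 69.9 and 69.6 on day 3 and was down to 7.72, 8.33, 8.14 and 9.15 on day 14. Its log2 fold change was 1.54 (SE 0.10, edgeR adjusted p = 1.1e-13) on day 3 and -1.76 (SE 0.10, edgeR adjusted p = 5.2e-14) on day 14. Clec4a2 had 17.9, 10.8, 11.3 and 10.9 FPKM at day 0, reached 31.2, 28.9, 28.6 and 30.8 on day 3 and was down to 4.35, 4.47, 3.81 and 5.37 on day 14, with log2 fold changes of 1.28 (SE 0.11, edgeR adjusted p = 9.1e-11) and -1.63 (SE 0.12, edgeR adjusted p = 3.3e-12). Both therefore also crossed from above to below day 0 with no overlap at either end. The means on days 5, 7, 10 and 12 were 72.3, 44.5, 22.6 and 27.8 FPKM for Clec4a1, 53.1, 37.4, 19.9 and 20.9 for Clec4a3, and 21.7, 15.9, 10.5 and 11.4 for Clec4a2. On day 10 they were already below day 0, with log2 fold changes of -0.70 (SE 0.11, edgeR adjusted p = 4.7e-06), -0.43 (SE 0.10, edgeR adjusted p = 0.00058) and -0.34 (SE 0.11, edgeR adjusted p = 0.015) for Clec4a1, Clec4a3 and Clec4a2, and the last of these was -0.13 (adjusted p = 0.24) without the 1st and 4th day 0 library. The day 7 calls of Clec4a1 and Clec4a2, 0.33 and 0.32, were lost without the 2nd and 3rd (0.14 for each). Relative to Ptprc, the day 3 ratios of Clec4a3 overlapped those of day 0, and those of Clec4a1 and Clec4a2 lay below them. Clec4a4 was near the limit of detection, with 0 to 12, 15 to 34, 18 to 49 and 0 to 4 counts on days 0, 3, 5 and 14, and its day 14 call (-2.22) was lost without the 1st and 4th day 0 library (-1.65, adjusted p = 0.17).

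Clec12a encodes MICL, an inhibitory receptor of granulocytes and monocytes. Its FPKM was 17.2, 6.52, 7.76 and 12.6 at day 0, then 16.2, 17.4, 15.9 and 17.6 on day 3 and at last 4.16, 5.22, 5.08 and 6.46 on day 14. The day 3 libraries overlapped those of day 0 (log2 fold change 0.66, SE 0.18, edgeR adjusted p = 0.0017), and the call was lost without the 2nd and 3rd of them (0.27, adjusted p = 0.051). The day 14 libraries all lay below those of day 0 (-1.21, SE 0.18, edgeR adjusted p = 1.9e-06), with values of -0.57 without the 1st and 4th and -1.57 without the 2nd and 3rd. On day 12 the value of -0.43 (edgeR adjusted p = 0.049) turned to 0.21 without the 1st and 4th. Means between were 13.8 ± 1.07, 13.4 ± 1.74, 9.18 ± 0.25 and 9.06 ± 0.22 FPKM on days 5, 7, 10 and 12. Days 5, 7 and 10 were not called with all libraries. Without the 1st and 4th day 0 library, days 5 and 7 were called higher (1.00 and 0.91). The day 10 value was 0.32 without that pair and -0.76 without the 2nd and 3rd, called in both fits with opposite sign. Clec12b, a further inhibitory receptor, had 9 to 60 counts per library and was called on day 14 alone, where it was lower (log2 fold change -0.96, SE 0.35, edgeR adjusted p = 0.017). Its value hardly moved without the 1st and 4th day 0 library (-0.93, adjusted p = 0.061) or the 2nd and 3rd (-0.91, adjusted p = 0.073), in fits of fewer libraries.

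Clec4b1 went the other way. It encodes DCAR, an activating relative of DCIR that pairs with FcRγ, and was lower than day 0 on all 6 wound days. Its FPKM was 7.94, 10.1, 11 and 8.17 at day 0, then 2.75, 3.27, 2.41 and 3.01 on day 3 and later 2.47, 1.88, 1.71 and 1.61 on day 10, and no library of these wound days reached the range of day 0. The log2 fold change was -1.64 (SE 0.15, edgeR adjusted p = 8.6e-11) on day 3, was -0.90 (SE 0.14, edgeR adjusted p = 4.4e-06) on day 7 and was -2.33 (SE 0.15, edgeR adjusted p = 6e-13) on day 10. From day 10 to day 12 it rose by 1.75 on the log2 scale (SE 0.15, edgeR adjusted p = 2.8e-10) to 6.85 ± 0.23 FPKM, where its call against day 0 (-0.58) was lost without the 2nd and 3rd day 0 library (-0.37, adjusted p = 0.066), and by day 14 it was back at 2.81 ± 0.40.

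The uptake receptors Clec10a, Clec4g and Clec9a likewise were low on day 10, higher on day 12 and low again on day 14, and each of these steps passed the test. Clec10a encodes MGL1, a receptor of macrophages and dendritic cells for galactose and its amino sugar. It had 74.2, 83.1, 85.5 and 54.4 FPKM on day 0, and its means were 48.1 ± 3.55, 78.8 ± 6.90 and 64.0 ± 5.43 on days 3, 5 and 7. On day 10 the libraries held 23.7, 23.7, 22.6 and 23.7, on day 12 they held 49.5, 45.3, 49.9 and 44.7, and on day 14 they held 16.9, 19.0, 17.9 and 19.9. These 3 days did not overlap with each other or with day 0. The log2 difference was -1.5 from day 7 to day 10 (SE 0.10, edgeR adjusted p = 6.4e-12), 0.92 from day 10 to day 12 (SE 0.10, edgeR adjusted p = 1.1e-08) and -1.35 from day 12 to day 14 (SE 0.10, edgeR adjusted p = 2e-11). Clec10a passed the test against day 0 on days 3, 10, 12 and 14, each time lower, and not on day 5 (log2 fold change 0.13, adjusted p = 0.25) or day 7 (-0.22, adjusted p = 0.054). These last values rest on the day 0 libraries: day 5 was called higher without the 2nd and 3rd (0.34, adjusted p = 0.0037) and was -0.05 without the 1st and 4th, and day 7 was called lower without the 1st and 4th (-0.40, adjusted p = 6e-05). Its neighbour Mgl2, with which it shares 10.6% of its windows, had 81.0 ± 46.0, 32.2 ± 2.14, 6.55 ± 0.42, 34.4 ± 3.13 and 9.23 ± 0.98 FPKM on days 0, 7, 10, 12 and 14.

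Clec4g, the gene of LSECtin, known from sinusoidal endothelium of liver and lymph node, had 0.643, 2.6, 1.90 and 0.485 FPKM on day 0 and was lower on all 6 wound days. Its counts were few: 22 to 130, 1 to 6, 21 to 30 and 3 to 7 per library on days 0, 10, 12 and 14. The FPKM on day 10 was 0.0209, 0.0616, 0.0205 and 0.123 (log2 fold change -4.63, SE 0.56, edgeR adjusted p = 8e-08), below every library of day 0. This value was -3.32 without the 2nd and 3rd day 0 library and -5.30 without the 1st and 4th. On day 14 it was -3.92, and -2.54 and -4.59 in the same order. The calls of days 3, 5, 7 and 12, at -1.72, -2.26, -1.97 and -1.60, were lost without the 2nd and 3rd, where the values were -0.36, -0.94, -0.66 and -0.27, and the libraries of days 3 and 12 overlapped day 0. Clec9a, the gene of DNGR-1, by which cross-presenting dendritic cells sense the actin of dead cells, stayed under 1 FPKM. It had 63 to 120, 18 to 51, 50 to 97 and 20 to 40 counts per library on days 0, 10, 12 and 14, and was lower on every wound day except day 12, with log2 fold changes of -0.62 (SE 0.28, edgeR adjusted p = 0.049) on day 3 and -1.88 (SE 0.29, edgeR adjusted p = 3.2e-06) on day 14. Its calls on days 3, 5 and 7 were lost without the 2nd and 3rd day 0 library (adjusted p of 0.31, 0.25 and 0.22). Reads in the exons it shares with Clec1b could belong to either gene.

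The summed markers of Langerhans, dendritic, mast, T and natural killer cells were also lower on days 10 and 14 than on day 12. The monocyte and macrophage sum was instead higher on day 10 (1690 to 1800) than on day 12 (1380 to 1510). That of 6 genes of leukocytes at large overlapped between these days (215 to 241 and 205 to 222). The summed FPKM of 4 Langerhans cell genes was 1710 to 2990, 1370 to 1620, 571 to 605, 1160 to 1400 and 537 to 672 on days 0, 7, 10, 12 and 14. The sum of 6 dendritic cell genes was 32.5 to 91.7, 33.4 to 35.7, 20.2 to 23.3, 28.7 to 34.6 and 15.6 to 18.4 on the same days, and that of 6 mast cell genes was 242 to 276, 418 to 530 and 142 to 191 on days 10, 12 and 14. For 7 T and natural killer cell genes it was 13.2 to 19.0, 25.2 to 30.5 and 13.3 to 19.2 on these 3 days. The part of these cells in the changes of Clec10a, Clec4b1, Clec4g and Clec9a was not tested.

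**Figure D4:**
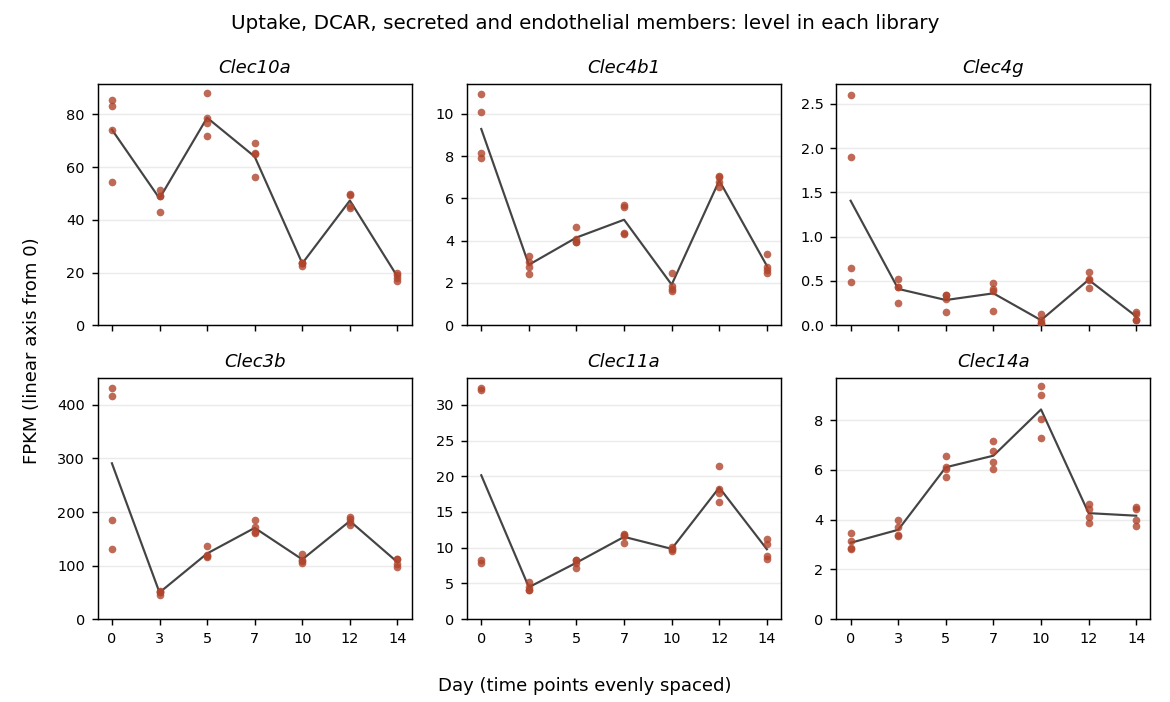
FPKM of 6 members on linear axes that start at 0, against day, with 1 point per library and a line through the day means. Clec10a, Clec4b1 and Clec4g are low on days 10 and 14 and higher on day 12, Clec3b and Clec11a are lowest on day 3 with day 0 split into a high and a low pair, and Clec14a is highest on day 10.

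The secreted members Clec3b and Clec11a were lowest early and were the ones that rose over the wound days. Clec3b encodes tetranectin, a plasminogen-binding protein of blood and connective tissue. It had 186, 417, 432 and 130 FPKM on day 0 and 50.6, 51.0, 53.1 and 44.3 on day 3, with no overlap (log2 fold change -2.49, SE 0.22, edgeR adjusted p = 9.7e-11). Against the lower pair of day 0 libraries alone, replicates 1 and 4, the value was -1.57, and against the higher pair it was -3.03. It rose by 1.29 on the log2 scale from day 3 to day 5 (SE 0.21, edgeR adjusted p = 4.7e-05), and its means were 123 ± 9.90, 170 ± 11.1, 112 ± 6.99, 183 ± 6.33 and 106 ± 7.24 FPKM on days 5, 7, 10, 12 and 14. All 6 wound days were called lower than day 0, but without the 2nd and 3rd day 0 library the values of days 7 and 12, -0.78 and -0.81, turned to 0.10 and 0.08, with no call. Those of days 5, 10 and 14, -1.21, -1.44 and -1.58, were then -0.32, -0.56 and -0.63, still called.

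Clec11a encodes osteolectin, a growth factor of bone marrow stroma that binds integrin α11. Its FPKM was 8.24, 32.0, 32.4 and 7.88 on day 0 and 5.22, 4.47, 4.08 and 4.11 on day 3. Replicates 2 and 3 of day 0 were thus well above replicates 1 and 4, and all 4 were above day 3 (log2 fold change -2.11, SE 0.30, edgeR adjusted p = 4.7e-07). This value was -0.75 without the 2nd and 3rd day 0 library and -2.79 without the 1st and 4th. The later means were 7.91 ± 0.51, 11.5 ± 0.54, 9.84 ± 0.23, 18.4 ± 2.12 and 9.78 ± 1.32 on days 5, 7, 10, 12 and 14. On day 14 the log2 fold change was -1.17 (SE 0.28, edgeR adjusted p = 0.00076), and -1.09 (edgeR adjusted p = 0.069) when days 0 and 14 alone were fitted. Without the 2nd and 3rd day 0 library it was 0.23 (adjusted p = 0.092), so its sign rests on that pair. The values of days 5, 7 and 10, -1.31, -0.81 and -1.09, likewise turned to 0.02, 0.51 and 0.23 without that pair, and the one of day 7 was then called higher (adjusted p = 0.00051). On day 12, where no call was made with all libraries (-0.27, adjusted p = 0.44), the value was 1.06 without that pair (adjusted p = 1.3e-08) and -0.94 without the other (adjusted p = 1.6e-09). The sign on day 12 thus also rests on the pair that is kept. From day 3 to day 14 Clec11a rose by 0.95 (SE 0.29, edgeR adjusted p = 0.0059) and Clec3b by 0.91 on the log2 scale (SE 0.21, edgeR adjusted p = 0.00045), a comparison without day 0. The matrix fibroblast sum was 4290 to 4920, 7490 to 7950, 10800 to 11100, 10500 to 11500, 8890 to 10000 and 3550 to 4000 on days 3, 5, 7, 10, 12 and 14, and its part in these changes was not tested.

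Clec14a, a receptor of blood vessel endothelium that binds multimerin-2, was higher than day 0 on all 6 wound days. It had 2.87, 3.47, 3.12 and 2.82 FPKM at day 0. Means of 3.59 ± 0.30, 6.10 ± 0.35 and 6.57 ± 0.50 on days 3, 5 and 7 led to 9.38, 8.05, 9.0 and 7.28 in the libraries of day 10. The day 10 libraries lay above all of day 0, and the log2 fold change was 1.40 (SE 0.09, edgeR adjusted p = 4.7e-13). It then fell by 1.08 on the log2 scale by day 12 (SE 0.09, edgeR adjusted p = 1.2e-10), to 4.26 ± 0.32 FPKM, and stood at 4.41, 3.73, 3.99 and 4.50 on day 14 (log2 fold change against day 0 0.31, SE 0.09, edgeR adjusted p = 0.0038, and 0.21 with adjusted p = 0.078 without the 1st and 4th day 0 library). The calls of days 3 and 12 (0.28 and 0.33) were lost without that pair too (0.19 and 0.23). The sum of 8 endothelial genes was 162 to 204, 284 to 302, 259 to 287 and 165 to 181 on days 0, 3, 10 and 12, and its part was not tested. The sum was highest on day 5, at 300 to 317, and Clec14a on day 10.

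Clec1a, a receptor of endothelial and myeloid cells, had 1.06, 1.72, 1.59 and 1.04 FPKM at day 0, then 2.62, 2.26, 2.70 and 2.12 on day 5 and finally 1.2, 1.22, 0.919 and 1.49 on day 14. The day 5 libraries were all above day 0 (log2 fold change 0.88, SE 0.16, edgeR adjusted p = 2e-05), and it was also higher on days 7 and 10, the latter (0.45) not without the 1st and 4th day 0 library (0.16, adjusted p = 0.42). The value on day 14, -0.30 (SE 0.16, edgeR adjusted p = 0.11), turned to 0.15 without the 2nd and 3rd day 0 library and to -0.58 (adjusted p = 0.0021) without the 1st and 4th. Clec1b, the gene of CLEC-2, by which platelets bind podoplanin, had 3 to 33 counts per library and was called on no day against day 0. Its day 7 value of 1.07 (edgeR adjusted p = 0.067) was called without the 1st and 4th day 0 library (1.77, adjusted p = 0.026). Its partner podoplanin (Pdpn) rose from 28.8 ± 5.12 FPKM on day 0 to 116 ± 5.17 on day 3 (log2 fold change 2.06, edgeR adjusted p = 1.1e-17), and 6 platelet genes summed to 94.6 to 143 on day 0 and 432 to 439 on day 3.

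Among the Clec2 genes, ligands of natural killer cell receptors and their relatives, Clec2d was abundant and the others were rare. Its product Clr-b holds natural killer cells in check. The gene had 95.7, 125, 121 and 76.3 FPKM on day 0, a mean of 78.7 ± 3.43 to 95.5 ± 5.75 on days 3 to 12, and 60.9, 59.1, 45.8 and 64.4 on day 14. It was lower than day 0 on each wound day except day 5, with log2 fold changes no further from 0 than -0.47 up to day 12 and overlapping libraries. None of the calls on days 3, 7, 10 and 12 was kept without the 2nd and 3rd day 0 library (-0.01, -0.01, -0.19 and -0.17). On day 14 it was below every library of day 0 (log2 fold change -0.99, SE 0.11, edgeR adjusted p = 9.7e-09).

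Clec2i, which also encodes a ligand of a natural killer cell receptor, had 0.862, 1.51, 2.08 and 0.770 FPKM on day 0, 1.95 ± 0.48 on day 3 and 0.363, 0.150, 0.388 and 0.400 on day 14, the latter all below day 0 (log2 fold change -2.12, SE 0.29, edgeR adjusted p = 4.1e-07, and -1.37 without the 2nd and 3rd day 0 library). Clec2g had 0.731, 0.621, 0.573 and 1.16 FPKM on day 0, 1.22 ± 0.19 on day 3 and 0.377, 0.359, 0.256 and 0.333 on day 14 (-1.34, SE 0.22, edgeR adjusted p = 6.5e-06). Clec2f, the transcribed pseudogene, had 0.729, 0.670, 0.472 and 0.811 FPKM at day 0, then 1.44, 1.48, 1.59 and 1.2 on day 3 and finally 0.272, 0.325, 0.167 and 0.155 on day 14. All of its day 3 libraries were above day 0 (log2 fold change 1.15, SE 0.29, edgeR adjusted p = 0.0011) and all of its day 14 libraries below (-1.66, SE 0.33, edgeR adjusted p = 8.7e-05), and its day 12 call (-0.92) was lost without the 1st and 4th day 0 library (-0.69, adjusted p = 0.14). Clec2g (0.72, SE 0.20, edgeR adjusted p = 0.0028) and Clec2i (0.64, SE 0.26, edgeR adjusted p = 0.031) were higher on day 3 as well, with libraries that overlapped day 0. The first of these calls was lost without the 2nd and 3rd day 0 library (0.47, adjusted p = 0.075) and the second without the 1st and 4th (0.18, adjusted p = 0.51). Clec2e peaked later: it had 15 to 31, 48 to 125 and 4 to 17 counts per library on days 0, 7 and 14, and was higher on days 5, 7 and 10, with a log2 fold change of 1.84 on day 7 (SE 0.30, edgeR adjusted p = 7.6e-06), and the call of day 5 (0.99) was lost without the 1st and 4th day 0 library (0.71, adjusted p = 0.093). Clec2l had 2 to 31 counts and was called higher on days 7 and 10, and the day 7 call (1.27) was lost without the 2nd and 3rd day 0 library (1.13, adjusted p = 0.13).

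Clec16a, the protein of endolysosomal traffic, changed least among the members called on any day. It had 1.89, 1.98, 2.11 and 2.21 FPKM on day 0, means between 1.66 and 1.84 on the wound days, and 1.62, 1.78, 1.63 and 1.65 on day 14. It was lower on all 6 wound days, with log2 fold changes from -0.17 (SE 0.07, edgeR adjusted p = 0.049) on day 3 to -0.42 (SE 0.07, edgeR adjusted p = 1.5e-05) on day 14. Without the 1st and 4th or the 2nd and 3rd day 0 library, the day 3 value was -0.16 or -0.12 and the day 5 value, -0.18, was -0.17 in both, none of them called in these smaller fits.

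The other 6 members were not tested for lack of counts. The highest count in any library was 15 for Clec4b2, 9 for Clec18a, 7 for Clec2h, 5 for the cartilage gene Clec3a, and 1 each for Clec2m and for Clec4f, the glycolipid receptor of Kupffer cells, which had that count in 1 of 28 libraries. A library with no count of a gene could still hold up to 3, which concerns counting error alone.

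Genes that act with the receptors were taken from lists chosen with earlier results of these data known. Of 12 adaptors and proximal kinases, 10 were higher and 1 lower on day 3 (31.8% and 34.8% of all genes), and 2 were higher and 9 lower on day 14 (28.2% and 34.5%), with list medians of 1.15 and -0.90 on the log2 scale. The kinase Syk rose from 4.12 ± 0.59 FPKM on day 0 to 16 ± 0.23 on day 3 (log2 fold change 2.01, edgeR adjusted p = 4.2e-18), beside Vav1 (2.05, edgeR adjusted p = 4e-15) and Lyn (1.93, edgeR adjusted p = 2.1e-17), while Fyn was lower (-0.35, edgeR adjusted p = 0.0033) and Src was not called (-0.15, edgeR adjusted p = 0.074). All 9 genes of the CARD9 complex and NF-kB were higher on day 3, by 1.88 for Card9 (edgeR adjusted p = 2.8e-12), 1.40 for Nfkbiz (edgeR adjusted p = 4.5e-13) and 0.99 for Relb (edgeR adjusted p = 1.6e-14) down to 0.47 for Rel (edgeR adjusted p = 1.3e-06) and 0.26 for Rela (edgeR adjusted p = 0.0024), and 8 were lower on day 14, against the same shares of all genes. Of the 3 phosphatases of inhibitory receptors, Ptpn6 (1.27, edgeR adjusted p = 1.8e-15) and Inpp5d (1.43, edgeR adjusted p = 5.3e-15) were higher on day 3 and Ptpn11 was not called (0.01, edgeR adjusted p = 0.91), and all 3 were lower on day 14, again against 31.8% higher and 34.5% lower of all genes.

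Of 12 cytokine and mediator genes known as targets of this signalling, 10, 11, 8 and 7 were higher on days 3, 5, 7 and 10 (31.8%, 29.0%, 25.6% and 23.5% of all genes) and 1 each on days 12 and 14 (21.7% and 28.2%), while 1, 3 and 6 were lower on days 10, 12 and 14 (26.9%, 25.6% and 34.5%). The list median was 4.28 on day 3 and -0.83 on day 14. Cxcl2 had 3.11 ± 3.91 FPKM on day 0 and 265 ± 42.6 on day 3 (log2 fold change 6.49, edgeR adjusted p = 1.7e-12), Il6 had 0.46 ± 0.46 and 36.5 ± 2.46 (6.33, edgeR adjusted p = 4.6e-15), and Cxcl1 had 0.84 ± 0.18 and 64.5 ± 3.51 (6.31, edgeR adjusted p = 2e-23). Il10 (0.50, edgeR adjusted p = 0.15) and Il12b (0.24, edgeR adjusted p = 0.57) were not called on day 3. Among 26 tested C-type lectin receptor genes with other names, 9 were higher and 12 lower on day 3 (31.8% and 34.8% of all genes), and all 26 were lower on day 14 (34.5%), with a list median of -1.66. On day 3 the log2 fold changes in this list included those of Olr1 (2.69, edgeR adjusted p = 2.9e-08) and Selp (2.66, edgeR adjusted p = 7.3e-19), and the lowest were those of Asgr2 (-2.42, edgeR adjusted p = 1.6e-06) and Mgl2 (-2.43, edgeR adjusted p = 8.6e-10). Of 6 genes of known ligands 4 were higher on day 3 (31.8% of all genes), among them Pdpn, Hspg2 (0.64, edgeR adjusted p = 0.00027) and the Clec14a ligand Mmrn2 (0.32, edgeR adjusted p = 0.00028), while Podxl was not called (0.04, edgeR adjusted p = 0.65). Itga11, a subunit of the receptor of Clec11a, was lower on day 3 (-1.44, edgeR adjusted p = 4e-09) and higher on day 10 (1.62, edgeR adjusted p = 4e-10).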

How the data were processed

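RNA extraction used TRIzol and library construction the VAHTS Universal V6 kit. Raw counts per gene symbol, without normalization, and FPKM values of the same genes and libraries were deposited by the authors. Per the submitters' processing notes, fastp, R 3.2.0 and the build mm10 were used; the aligner, counter, annotation and strandedness are not given in the sources used here. All columns were used. Of the genes, 347 had no count in any library.

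Differences were tested on the counts by edgeR 4.0.16 under R 4.3.3 (TMM, filterByExpr on the 7 days, estimateDisp, glmQLFit, two-sided glmQLFTest), in 1 fit of 28 libraries with 21 residual degrees of freedom and Benjamini-Hochberg adjustment over 18107 genes. FPKM, as deposited, served to compare levels. The fits were first tested on simulated counts with known changes. These counts had the same spread on all days, so the wider spread of day 0 was not covered. Alternatives used DESeq2 1.42.0, limma 3.58.1 on log2(FPKM + 1) or log2(FPKM + 0.1), other scalings and filters, the replicate block, the limits of the study and each library left out in turn. Ratios to Ptprc used counts plus 0.5.

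The members and the lists were chosen with earlier results of these data known. Every member is named. Values by library are given for tested members that were called in any test and reached a mean of 1 FPKM on any day, and the others are given by counts. Partner lists are given by counts, with the 3 largest and the 2 lowest log2 fold changes on day 3, except for 1 gene that is not reported here. Positions come from GENCODE and promoters from RefSeq, both on GRCm38, matched by symbol. A planned search for protein motifs was not run.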

Additional observations from a re-analysis of the deposited data

Results flagged for a closer look

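Of 189 groups of 4 libraries (27 members on 7 days), 9 held a library far from the other libraries of its day on the log2 CPM scale, and chance alone flags about 1 in 20 groups, here 9.4. On day 5, replicate 4 stood apart for 5 members. It was above the other libraries for Clec12a (5.19 against 4.94 to 4.97), Clec3b (7.18 against 6.93 to 6.95), Clec4a1 (7.03 against 6.83 to 6.86) and Clec4b1 (1.98 against 1.72 to 1.76), and below them for Clec4g (-2.06 against -1.18 to -1.0). On day 0, replicate 1 was above the other libraries for Clec4a1 (6.32 against 5.60) and Clec4a2 (5.69 against 4.96 to 5.01). Single low libraries were replicate 3 of day 5 for Clec12b (-0.79 against -0.04 to 0.10) and replicate 2 of day 14 for Clec2i (-1.39 against -0.19 to -0.06).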

How the results depend on the processing

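Over 15 counts of members, 585 of 608 recomputed values lay within 1.5 times the reported one, each counted over the members with enough counts in its fit. With the limits of the study, the members higher than day 0 numbered 7, 5, 5, 4, 1 and 0 on days 3, 5, 7, 10, 12 and 14, the members lower numbered 4, 1, 1, 4, 1 and 11, and 0 were higher on day 14 than on day 3, since these limits also ask for a size. Without the 2nd and 3rd day 0 library, a choice made after seeing the data, 7 were higher and 7 lower on day 12, 4 were lower on day 3, 2 on day 5 and 2 on day 7, and fitting the compared days alone left 3 lower on day 7. Each library left out in turn gave 5 to 7 lower on day 3, with 5 without day 0 replicate 2 or day 3 replicate 3, and 4 to 8 lower on day 7, with 4 without day 0 replicate 2 or 3. The cause of these shifts was not tested.

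Of 1275 recomputed values of 32 fold changes of single members, 1259 kept their direction and call, 3 gained a call, 7 lost one and 6 changed sign. Only day 14 and the day farthest from day 0 were taken for each of these members. Changes of sign on other days, as for Clec11a, Clec3b and Clec12a, are given with their results. The 6 counted here were all on day 14. Clec11a (0.23) and Clec1a (0.15) changed sign without the 2nd and 3rd day 0 library, and Clec4e did so without the 1st and 4th (1.86), in limma on log2(FPKM + 0.1) (0.29), and without day 0 replicate 1 (0.47) or 4 (0.01), its range over libraries left out being -0.64 to 0.47. Replicate numbers did not pair the libraries: same-numbered deviations had a median correlation of -0.000911 (range -0.0762 to 0.177), and 8 of 28 libraries were closest to their own number. The replicate block gave 14 members higher and 7 lower on day 3, and 3 higher and 20 lower on day 14. Low counts limit Clec4a4, Clec1b, Clec2l and Clec4g.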
